A study of Caenorhabditis elegans with 2 samples.

Results

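The 10 genes described here encode factors of translation initiation and elongation in Caenorhabditis elegans or, for ifet-1, a repressor of translation. They are iff-1, iff-2, ifet-1, eif-3.B, eif-3.C, eif-3.D, eif-3.E, ife-2, eef-1A.1 and eef-2, 10 of 19973 protein coding genes on the nuclear chromosomes in Ensembl release 115. Binding near them was measured by chromatin immunoprecipitation and sequencing (ChIP-seq) of NHR-77, a nuclear hormone receptor family transcription factor, carrying an eGFP tag. Whole L3 larvae of both sexes, pooled, were used from strain OP353, whose genotype is given as unc-119(tm4063) III and wgIs353, an insertion that targets nhr-77. Both samples have this genotype and stage. They are biological replicates 1 and 2 of 1 group, and no untagged strain or second condition is among them, so how far the signal is particular to NHR-77 was not tested. Cells of different tissues cannot be told apart in whole animals. The antibody is labelled nhr-77, which does not say if it recognised the tag or the protein.

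The members were chosen by name with the ranks and signals of these peak lists in view, so those values are given as a description and nothing was tested with them. The lists give, for each called place, a summit and the authors' signal value, an enrichment of the ChIP over a control on a scale that differs between lists. There were relaxed lists, which include background, for either replicate and for the pool, with 30000 entries apiece. From these the authors derived a list, labelled optimal, of 590 peaks that passed a limit on the irreproducible discovery rate (IDR). The IDR scores how alike replicates rank peaks, but a peak in this list need not rank high in both replicates. All 590 were also the 590 strongest pooled entries. Signal ran from 28.9 to 426.8 in the IDR list, and its median over the pooled list was 8.27. The promoter window of a gene began 1000 bp before any annotated 5′ end and ended 500 bp after it. Read depth is unknown, and an entry of a peak list carries no error of its own.

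Translation begins when initiation factors bring the small ribosomal subunit, the initiator tRNA and a capped mRNA together. The eIF4E proteins bind the cap, and the many-subunit eIF3 complex is a scaffold on the small subunit. Elongation then runs on eEF1A, which delivers aminoacyl-tRNA, on eEF2, which moves the ribosome along the mRNA, and on eIF5A, which aids peptide bond formation. Growing larvae need these proteins in nearly all cells.

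Signal fell gradually over the 10 promoters, and the limit of the IDR list divided them. This list held a summit in the promoter window of 6 of the 10 genes, namely iff-2, ifet-1, eif-3.C, eif-3.B, eef-2 and eef-1A.1. The other 4, ife-2, eif-3.E, eif-3.D and iff-1, had summits in the relaxed lists but not in the IDR list. Of all protein coding genes 2.5% had an IDR summit and 45.5% had any pooled summit, against 6 and 10 of the 10 genes. Since the members were named with these lists known, nothing is read from that gap.

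To show the DNA at the summits on which the description turns, the stretch within 50 bp on either side was read from the reference for iff-2, ifet-1, eif-3.B and eef-1A.1, and for ife-2, the member nearest to the IDR list from outside. Each is written 5′ to 3′ on the strand of the named gene, in ce11 coordinates. The stretch of iff-2 (chrII:8561368-8561458, minus strand) ends just before the annotated 5′ end. The others are chrIII:4475580-4475680 for ifet-1 and chrIII:6972077-6972177 for eef-1A.1, both on the minus strand, chrII:14795054-14795154 on the plus strand for eif-3.B, and chrX:382847-382947 on the minus strand for ife-2. Capitals mark matches to any of the motifs searched.
iff-2: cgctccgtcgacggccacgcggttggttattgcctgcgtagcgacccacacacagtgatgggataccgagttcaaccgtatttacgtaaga
ifet-1: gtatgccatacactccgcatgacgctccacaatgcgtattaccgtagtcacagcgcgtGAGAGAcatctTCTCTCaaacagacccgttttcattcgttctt
eif-3.B: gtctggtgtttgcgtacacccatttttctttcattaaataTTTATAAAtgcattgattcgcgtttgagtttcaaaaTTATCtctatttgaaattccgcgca
ife-2: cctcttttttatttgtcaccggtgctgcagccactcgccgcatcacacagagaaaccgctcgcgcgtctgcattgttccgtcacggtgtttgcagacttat
eef-1A.1: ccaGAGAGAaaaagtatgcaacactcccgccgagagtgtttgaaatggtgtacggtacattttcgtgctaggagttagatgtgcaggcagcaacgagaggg

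The 2 eIF5A genes stood at opposite ends. For iff-2 (chromosome II, 8559375 to 8561367, minus strand), the gene for the form of eIF5A known mainly from somatic cells, the strongest summit had a signal of 103 in the pool at rank 34, of 39.6 in replicate 1 at rank 57 and of 66.1 in replicate 2 at rank 35. All 3 lists thus placed it high. Upstream distances to the 5′ end were 41, 39 and 41 bp, and the gap of 2 bp between replicates was the smallest among the 6 genes. The snoRNA gene F54C9.12 (636 bp) and the protein coding gene F54C9.14 (894 bp) have the same pooled summit upstream of their 5′ ends, but iff-2 was the nearest.

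For its paralog iff-1 (chromosome III, 9745862 to 9747193, minus strand), whose eIF5A is known for its role in the germline, the strongest pooled summit had a signal of 6.24 at rank 25052, below the median of the pooled list. That summit lay in the coding sequence of iff-1 itself, 37 bp downstream of an internal 5′ end, and had a match in replicate 1, at rank 7983 and signal 6.65, but none in replicate 2. A second pooled summit at rank 26166 lay 303 bp upstream, where cdk-1, a cell cycle kinase gene on the other strand, has its 5′ end 24 bp away. Replicate 2 had its only summit in the window within 100 bp of that one, 331 bp upstream at rank 9168. The best summit of replicate 1 was elsewhere, 748 bp upstream at rank 4222, and fell in the windows of cdk-1 and of T05G5.4, which starts 993 bp away. Another entry of replicate 1, 315 bp downstream of an internal 5′ end at rank 26395, was also 151 bp upstream of the noncoding RNA gene T05G5.17. No place at iff-1 was thus ranked high in both replicates. Whether transcripts of either gene differ in these larvae was not measured.

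**Figure D1:**
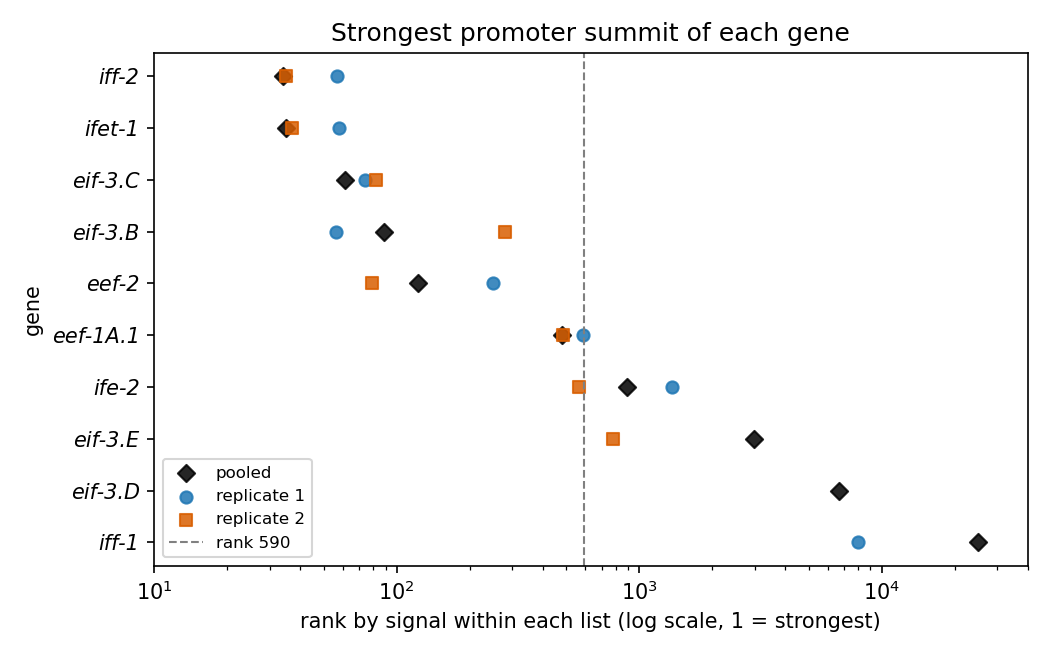
Rank by signal (horizontal axis, log scale, 1 is the strongest) of the strongest pooled promoter summit of each gene, and of the summit within 100 bp of it in each replicate. Black diamonds are the pooled list, blue circles replicate 1 and orange squares replicate 2, with a dashed line at rank 590. The 6 upper genes lie at or before rank 590 in all 3 lists, and a missing symbol means that no summit was found within 100 bp.

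The genes around the cap-binding protein eIF4E also differed. At ifet-1 (chromosome III, 4471411 to 4475150, minus strand), which encodes an eIF4E-binding repressor of translation, the signal was 102 in the pool at rank 35, 38.7 in replicate 1 at rank 58 and 62.7 in replicate 2 at rank 37. These values were almost those of iff-2 in every list. The pooled summit lay 480 bp upstream of ifet-1 and 288 bp from the 5′ end of rps-1, which runs the other way and encodes a ribosomal protein. It fell inside exons of the noncoding RNA genes F56F3.10 and F56F3.11, 54 and 27 bp downstream of their 5′ ends. Which of these genes the binding belongs to cannot be told apart from position, and ifet-1 was the farthest of the 4.

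At ife-2 (chromosome X, 381385 to 382709, minus strand), which encodes an eIF4E isoform, the signal was 24.6 in the pool at rank 891, 12.1 in replicate 1 at rank 1368 and 16.1 in replicate 2 at rank 565. Replicate 2 alone would put it among the 590 strongest. The summits of the replicates were 101 bp apart, 155 and 256 bp upstream, with the pooled one between them at 188 bp and no other gene's window there. Values on either side of the IDR limit were thus those of eef-1A.1 inside (31.5, rank 481) and of ife-2 outside. The authors' −log10 q-value was 2.98 for both, the maximum, which 1428 pooled entries shared. For the strongest pooled summit it was lower at eif-3.E (1.88), at eif-3.D (1.03) and at iff-1 (0.173). The second pooled summit of iff-1 had 0.158.

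Of the 4 eIF3 subunit genes, eif-3.C and eif-3.B had IDR summits, while eif-3.E and eif-3.D did not. At eif-3.C (chromosome I, 9976426 to 9979662, minus strand) the signal was 71.4 in the pool at rank 61, 35.1 in replicate 1 at rank 74 and 36.1 in replicate 2 at rank 82. The ranks were close in both replicates, and the pooled summit 219 bp upstream lay in no other gene's window.

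At eif-3.B (chromosome II, 14795404 to 14798235, plus strand) the signal was 62.8 in the pool at rank 89, 39.6 in replicate 1 at rank 56 and 21.1 in replicate 2 at rank 279. Replicate 1 gave it about the rank of iff-2, replicate 2 a lower one. The summit was nevertheless placed alike, 300 bp upstream in the pool and in replicate 1 and 282 bp upstream in replicate 2, again with no other gene in reach.

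At eif-3.E (chromosome I, 10640465 to 10642281, minus strand) the pooled signal was 15.2 at rank 2991, with a summit 190 bp upstream and 558 bp from the 5′ end of B0511.17 on the other strand. Replicate 2 had it at rank 777 with a signal of 14.3, and replicate 1 had no summit within 100 bp. The best entry of replicate 1 in this window was at rank 6161, 661 bp upstream and 87 bp from B0511.17, so the replicates did not share a place. At eif-3.D (chromosome III, 8969635 to 8971578, minus strand) the only pooled summit had a signal of 11.4 at rank 6686. It lay 921 bp upstream in the coding sequence of the neighbour R08D7.4 and was matched in neither replicate. The 4 subunit genes thus ranged from rank 61 to rank 6686.

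**Figure D2:**
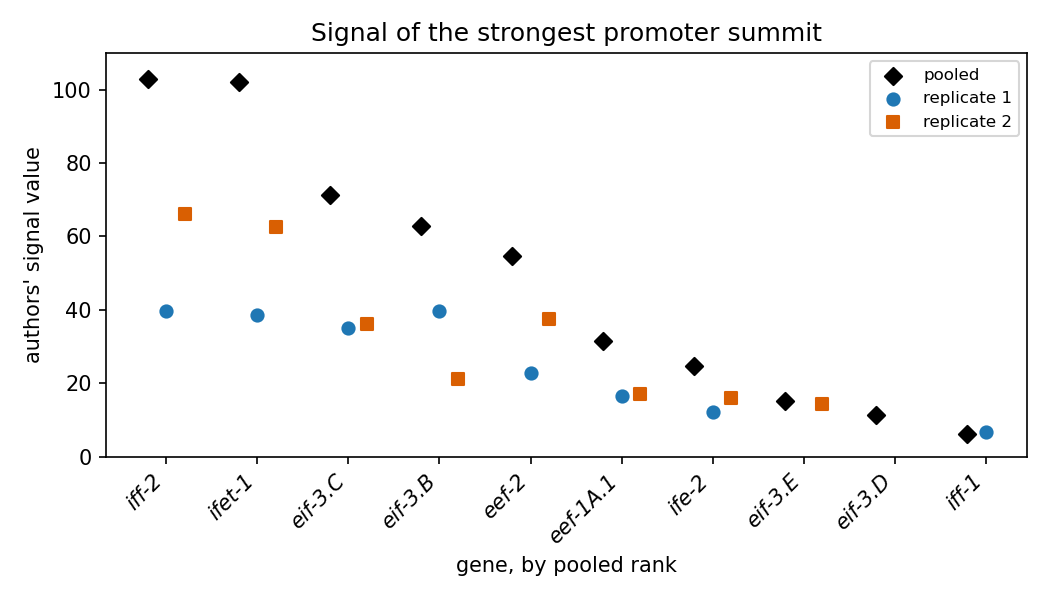
The authors' signal value (vertical axis, no unit) of the strongest pooled promoter summit of each gene and of the matched summit in each replicate, with genes ordered by pooled rank. Scales differ between the lists, so symbols are comparable along one list: pooled signal falls from 103 at iff-2 to 6.24 at iff-1, and eif-3.B is level with iff-2 in replicate 1 but below eif-3.C and eef-2 in replicate 2.

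Both elongation factor genes had IDR summits. At eef-2 (chromosome I, 9163531 to 9166952, plus strand), which encodes the translocase eEF2, the signal was 54.7 in the pool at rank 123, 22.7 in replicate 1 at rank 249 and 37.4 in replicate 2 at rank 79. Replicate 2 ranked it higher. Summits lay 52, 24 and 46 bp upstream of its first 5′ end, and 213 bp upstream of clsp-1, a claspin homolog transcribed the other way, in the pool. Replicate 1 had a second summit at rank 1546, 20 bp upstream of an internal 5′ end of eef-2, for which the pool had none.

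At eef-1A.1 (chromosome III, 6970026 to 6971712, minus strand), an eEF1A gene also known as eft-3 whose promoter is widely used to drive transgenes, the signal was 31.5 in the pool at rank 481, 16.5 in replicate 1 at rank 589 and 17 in replicate 2 at rank 486. It was the weakest of the 6 in each list by rank. Its pooled summit was 415 bp upstream. The divergent gene rfc-4, for a replication factor C subunit, was nearer at 126 bp, and the microRNA gene cel-mir-5549 nearer still at 42 bp.

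**Figure D3:**
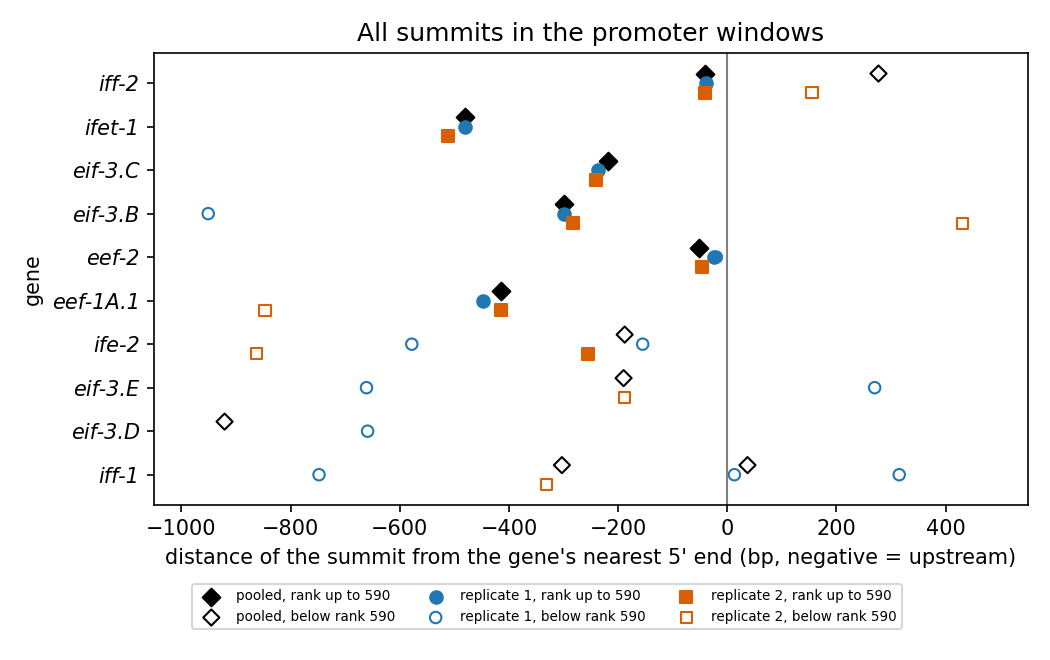
Distance in bp of every summit in the promoter windows from the nearest 5′ end of the gene (horizontal axis, negative is upstream). Diamonds are pooled, circles replicate 1 and squares replicate 2, with filled symbols for rank 590 or better. Filled symbols of a gene lie together and upstream, from 24 bp to 512 bp. Open symbols lie on both sides, some of them together, as at eif-3.E. At genes with several 5′ ends, such as eef-2, symbols plotted close together can be apart on the chromosome.

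Most summits lay upstream of their gene. This held for the strongest pooled summit of 9 of the 10 genes, all but iff-1. The window reaches 1000 bp upstream but only 500 bp downstream, which by itself favours upstream places. The same share over all protein coding genes with a pooled summit is not given here, so nothing is read from this count. At the 6 genes with an IDR summit the distance ran from 41 to 480 bp with a median of 259.5 bp. Of these 6 summits 5 were intergenic, beside 63.9% of all 590 IDR summits. Over the 500 protein coding genes with an IDR summit, the strongest one was upstream in 91.4% and lay at a median of 247.5 bp, with quartiles of 141.25 and 449.25 bp. The 6 genes thus span the range seen at other bound genes, with iff-2 and eef-2 nearer than the first quartile and ifet-1 farther than the third. The replicates' summits were 2 to 32 bp apart at the 6 genes. Of the other 4, only ife-2 had a match in both replicates.

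All 6 of these summits had a match within the 590 strongest entries of both replicates, as did 266 of the 590 IDR peaks (45.1%). Counting each replicate alone by its 590 strongest entries, replicate 1 marked the same 6 genes, against 2.29% of protein coding genes, and replicate 2 marked these 6 and ife-2, against 2.31%. IDR peaks were derived from both replicates, so this overlap follows in part from how they were chosen. The members were also named with the replicate ranks in view. All of the 6 but eef-1A.1 were at pooled rank 123 or better. Nothing is therefore read from the gap to 45.1%. Of the 6, 4 had the better rank in replicate 2, and eif-3.B and eif-3.C in replicate 1.

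The 2 strongest peaks were also narrow. Peak width was nearly fixed in these lists, at 344 bp for 90.5% of IDR peaks, but the iff-2 peak was 178 bp wide (chromosome II, 8561329 to 8561506) and the ifet-1 peak 169 bp (chromosome III, 4475578 to 4475746). In replicate 2 they were 97 and 115 bp wide against the usual 270 bp, and in replicate 1 both had the usual 320 bp. Narrower peaks are found among the strongest, with 47 in the IDR list and 35 of them within the first 50, so width here goes with rank.

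Other genes shared most of these summits. Of the 6 IDR summits, 4 were also in the promoter window of a protein coding gene on the other strand, as described for F54C9.14, rps-1, clsp-1 and rfc-4, while those of eif-3.B and eif-3.C were in none. Of the 370 IDR summits in a coding promoter window, 129 (34.9%) were in more than 1. That share counts each summit once and genes on either strand, while the 6 summits were reached through genes, so the counts are not on the same basis. A shared summit serves more than 1 gene, so the share over genes is higher than 34.9%. Nothing is read from setting these counts together. With each summit assigned to the closest 5′ end alone, ifet-1 and eef-1A.1 dropped out and 4 of the 10 genes were left, against 278 protein coding genes in place of 500.

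The GC content of the 6 promoters with an IDR summit was near that of the IDR list. Median GC content within 100 bp of the summit was 41.3% at the 6 genes, 42.3% over the 590 IDR summits, 35.3% over the other 29410 pooled summits and 33.8% over coding promoters, taken from 250 to 50 bp upstream. Single values ran from 36.3% at eef-2 to 48.8% at iff-2. Median GC was 43.3% at the other 4, with 31.8% at eif-3.D. Every stretch of 50 bases in these 10 windows occurs once in the reference genome, paralogs included.

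Of the 8 motifs searched on both strands in these windows, none was common to the members. AGGTCA, the half-site of many nuclear hormone receptors, was at none of the 10, and it was found at 5.42% of IDR summits, 4.96% of other pooled summits and 5.96% of coding promoters of the same length. The letters CACGTG (5.59%, 3.67% and 3.98%) and CTGCGTCT (13.7%, 2.3% and 2.8%) were also at none. GAGAGA was at ifet-1, on both strands as capitals show above, and at eef-1A.1, beside 32.9% of IDR summits, 13.5% of others and 15.7% of coding promoters. TTTCGCG was at eif-3.C and eef-2, against 7.12%, 2.8% and 2.89%.

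The AT-rich motifs were found at members with and without an IDR summit. GATAA was at eif-3.B, eif-3.E and iff-1, against 33.7%, 38.3% and 44.3% in the same order of sets, and TATAAA at eif-3.B, ife-2 and eef-1A.1, against 16.6%, 21.4% and 25.7%. GCGCGC was at eif-3.E alone, against 10.7%, 1.98% and 2.81%. Matches of different motifs may overlap. A match is a run of letters and not a shown site, and the stretches of iff-2 and ife-2 printed above hold none.

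A list of 51 genes for translation factors and their direct regulators, which includes the 10, was taken by gene symbol. Factors with other kinds of symbol are not in it. Of the 51 genes, 11 had an IDR summit and 45 had any pooled summit, beside 2.5% and 45.5% of all protein coding genes. Without the 10 chosen genes, 5 of 41 had an IDR summit and 35 any pooled summit. The list was made with earlier results on these lists known, and the counts by role include the 10 genes. Elongation factors had 4 of 7 with an IDR summit, the eIF4 group with poly(A)-binding proteins 3 of 12, eIF3 2 of 13, eIF5A 1 of 2, and eIF2 with its exchange factor eIF2B 1 of 8. None of 6 other initiation factors and none of 3 termination factors had one. The median of the best pooled rank was 6924 over the 45 genes, 10182 over the 35 that were not among the 10, and 10849 over the 9089 protein coding genes with a pooled summit.

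**Figure D4:**
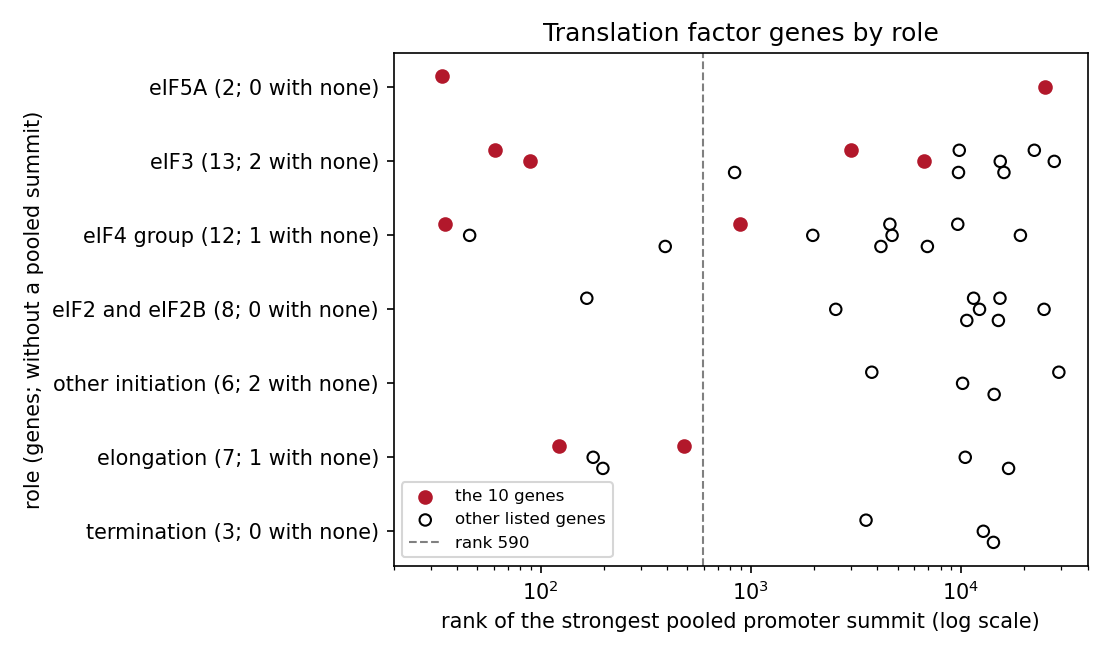
Pooled rank (horizontal axis, log scale) of the strongest promoter summit of each of the 51 listed genes, in rows by role, with the number of genes and of those without a pooled summit in brackets. Red points are the 10 genes described here and open circles the other 41. Left of the dashed line at rank 590 are 11 genes, 4 of them in the elongation row.

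Outside the 10, 5 listed genes had an IDR summit. The strongest was drr-2, an eIF4H homolog, with a signal of 82.5 at pooled rank 46 and ranks 75 and 50 in replicates 1 and 2. Its summit, 194 bp upstream, was 152 bp upstream of set-16, a histone methyltransferase gene. Both replicates ranked drr-2 high, between ifet-1 and eif-3.C in the pool.

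The paralog eef-1A.2 had more signal than eef-1A.1 in every list. Its summit, 410 bp upstream on chromosome X, had a signal of 47.8 at pooled rank 178, with 29 at rank 127 in replicate 1 and 27.4 at rank 146 in replicate 2. Replicates 1 and 2 placed it 358 and 449 bp upstream, against 447 and 415 bp at eef-1A.1. The pooled summit of eef-1A.2 was nearer to the 5′ end of the noncoding RNA gene R03G5.8, at 281 bp. The gene eef-1G, for the gamma subunit of the complex that recharges eEF1A, had a signal of 46.2 at pooled rank 198, 25 bp upstream of its 5′ end and 155 bp from that of ctf-4. It was at rank 110 in replicate 2 and at 646 in replicate 1, outside the first 590.

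The remaining genes also differed in rank between replicates. At eif-2Bgamma, a subunit gene of eIF2B, a summit 681 bp upstream with a signal of 48.6 was at pooled rank 166 and at rank 71 in replicate 1, but at rank 3829 in replicate 2, and noncoding genes had their 5′ ends nearer, among them the piRNA gene 21ur-14704 at 9 bp and C15F1.14 at 63 bp. At pab-2, a poly(A)-binding protein gene, the signal was 34.2 at pooled rank 392, with rank 469 in replicate 2 and 1697 in replicate 1. Of the listed genes with no IDR summit and not among the 10, the highest pooled signals were those of eif-3.J (25.1), ife-3 (17.5), eif-2Bbeta (16), erfa-3 (14.3) and eif-2D (14). The eif-3.J summit was within the first 590 of replicate 1, at rank 538, and had no match in replicate 2.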

How the data were processed

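Peak lists of 2 biological replicates were used. Per the labels and the deposited file inventories, the authors called relaxed lists of peaks and background per replicate and on both pooled, each against a control, and derived the IDR list from these. The aligner, the peak caller and the IDR limit were not given in the sources used here. Column 7 of the deposited lists was read as the authors' signal value and column 9 as their −log10 q-value. Because signal is relative to a control and scaled per list, entries were ranked within each list and no fold was taken between lists.

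The 4 ce11 lists were joined to Ensembl release 115 and to the RefSeq sequence of WBcel235, the same assembly. All nuclear peaks ended inside its chromosomes. The ce10 lists were not used. Coordinates are 1-based, summits within 100 bp counted as matched, and motifs were sought within 100 bp of the summit. Python 3.11.15, pandas 2.3.3 and numpy 2.4.6 were used, and window, distance and motif code was tested on simulated data. No significance test was made, as the members and lists were chosen with earlier results of these data known and there is 1 group. Every member is named, with the genes whose windows hold its summits, other listed genes with an IDR summit, and the 5 strongest without one. Of the symbols meant for the list, 1 (ppp-1) is no current gene symbol. Alternatives changed the window, gene assignment, number of peaks, matching distance, motif window and replicate.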

Additional observations from a re-analysis of the deposited data

How the results depend on the processing

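The member count of 6 was 4 with the nearest 5′ end only, 5 with the 295 stronger IDR peaks, 6 with windows of 500 or 2000 bp upstream, and 6 to 7 with a single replicate. The listed translation factors fell from 11 to 6 with the nearest 5′ end only, and ranged from 10 to 11 with single replicates, 9 and 10 of these genes being among the main 11. Protein coding genes fell from 500 to 278 with the nearest 5′ end only and to 270 with the 295 stronger peaks, both by construction, and were 457 to 462 with single replicates. The median place of the 10 strongest summits, -204.5 bp, was -256 bp over 9 genes in replicate 2, where eif-3.D had none, and -373.5 bp in replicate 1, where the strongest summits of iff-1, eif-3.E and eif-3.D lay 748, 661 and 659 bp upstream. TATAAA was at 1 gene rather than 3 within 50 bp of the summit, a shorter window. Of 33 alternatives in all, 28 left the value within 1.5 times or within the replicates' spread. Some of the 28 could not have changed, such as motifs at none of the genes sought again in a shorter window inside the first. Others, such as a wider promoter window, could not have lowered a count. No paired analysis was possible because there is 1 group. Unknown depth and 2 libraries limit every value.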
